A study of Mus musculus with 10 samples.

Results

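The Hippo pathway genes Yap1, Wwtr1, Tead1, Tead2, Tead3, Tead4, Lats1, Lats2, Amotl2 and Ajuba were compared between a mouse melanoma line, WT31, and a subline of it that had been passaged through the liver, WT31_P5IV. The 10 genes were taken by symbol, and all 10 were found among the 55385 gene identifiers of the tables. In WT31_P5IV, transcripts of both coactivators (Yap1 and Wwtr1), of Tead1, of both Lats kinases and of Amotl2 were lower than in WT31, at 59.7% to 86.7% of its level. Tead2 and Tead3 were slightly higher, and for Tead4 and Ajuba no difference was found in the main fit. On another scale, given below, Tead4 and Ajuba were called lower, before allowance for a shift of all genes. Of the calls in the main fit, those on Tead2, Tead3 and Lats1 did not hold when the WT31 libraries of replicates 2 and 3 were left out.

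The Hippo pathway is a kinase cascade that limits cell growth in response to cell contact, cell shape and stiffness of the matrix. Mst kinases, encoded by Stk3 and Stk4 and scaffolded by Sav1, activate Lats1 and Lats2 together with their Mob1 cofactors. The Lats kinases phosphorylate the coactivators Yap1 and Taz (encoded by Wwtr1), which are then held in the cytoplasm or degraded. Unphosphorylated Yap1 and Taz enter the nucleus and bind DNA through the Tead transcription factors. Amotl2 belongs to the angiomotin family, which binds Yap1 at junctions and actin fibres, and Ajuba is a LIM-domain scaffold that binds and restrains Lats. Much of this control is through phosphorylation and location of the proteins, which transcript levels do not show.

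WT31 was established from melanoma of Tyr::NrasQ61K/°; INK4a-/- mice, so both groups carry mutant Nras driven by the tyrosinase promoter of the pigment lineage and lack INK4a. WT31_P5IV was obtained from WT31 by tail-vein injection into mice, outgrowth of the liver metastases in culture and re-injection, over 5 such cycles. Cells of both groups were grown untreated in serum-containing medium and were sub-confluent when total RNA was taken. There were 5 libraries of WT31 and 5 of WT31_P5IV, titled as biological replicates of 1 line and 1 subline. Nothing states that they came from separate cultures, so p-values measure only the spread between these libraries, and other sublines were not analysed here.

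Total estimated counts lay between 24255389 and 25750639 per library. In a principal component analysis, WT31 replicates 2 and 3 stood apart from the other WT31 libraries on the second component (-17.94 and -16.55, against 3.07 to 20.95), so calls that changed without them are given below. All 8 melanocyte markers were expressed, with 4 (Dct, Tyr, Pmel and Slc45a2) higher in WT31_P5IV, 2 (Tyrp1 and Sox10) lower and 2 (Mitf and Mlana) not past the threshold used below, and their summed level was 17630 to 19030 CPM, that is counts scaled to the size of the library, in WT31 and 23100 to 26710 in WT31_P5IV. Summed hepatocyte markers reached 0.606 to 0.871 CPM in WT31 and 0.744 to 1.43 in WT31_P5IV, with 4 of 8 (Apob, Serpina1a, Fgb and Cps1) at no more than 3 counts in every library. Fibroblast and stellate cell markers summed to 3.81 to 4.86 CPM in WT31 and 5.52 to 6.64 CPM in WT31_P5IV, with 3 of 5 tested (Col1a1, Col1a2 and Acta2) higher in WT31_P5IV, endothelial markers to 0.158 to 0.492 and 0.161 to 0.463, and leukocyte markers to 4.84 to 6.68 and 4.22 to 6.24, in which Cd68 was higher in WT31_P5IV (log2 fold change 1.45) and Lyz2 lower (mean 4.33 CPM in WT31 and 1.08 CPM in WT31_P5IV). The part of these markers in the differences described here was not tested. For bulk RNA such as this, fewer expressing cells and less RNA per cell cannot be told apart.

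Tead factors recognise a short DNA word, GGAATG, which reads CATTCC on the opposite strand. The bases just upstream of 3 of the 10 genes and of Ccn1 are shown because all 4 hold this word. Ccn1 is among the most widely used readouts of Yap1 and Taz activity. Yap1, Wwtr1 and Ccn1 were lower in WT31_P5IV, and Ajuba was not. Each sequence is the 250 bases before a RefSeq gene start in GRCm38.p6, written 5′ to 3′ on the strand of the gene, with the word in capitals on whichever strand it lies. The windows are chr9:8004597-8004846 for Yap1, chr3:57575911-57576160 for Wwtr1, chr14:54577662-54577911 for Ajuba and chr3:145649986-145650235 for Ccn1, all of genes on the minus strand.
Yap1: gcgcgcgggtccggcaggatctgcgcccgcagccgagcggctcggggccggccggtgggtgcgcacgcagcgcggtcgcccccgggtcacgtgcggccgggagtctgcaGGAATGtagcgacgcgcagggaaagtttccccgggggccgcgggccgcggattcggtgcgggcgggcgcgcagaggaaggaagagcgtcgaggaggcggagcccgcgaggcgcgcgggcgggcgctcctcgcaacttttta
Wwtr1: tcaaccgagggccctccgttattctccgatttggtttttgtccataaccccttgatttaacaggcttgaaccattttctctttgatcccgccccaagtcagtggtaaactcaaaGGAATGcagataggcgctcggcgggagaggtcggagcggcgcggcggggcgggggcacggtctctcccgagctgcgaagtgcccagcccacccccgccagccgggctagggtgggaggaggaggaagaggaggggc
Ajuba: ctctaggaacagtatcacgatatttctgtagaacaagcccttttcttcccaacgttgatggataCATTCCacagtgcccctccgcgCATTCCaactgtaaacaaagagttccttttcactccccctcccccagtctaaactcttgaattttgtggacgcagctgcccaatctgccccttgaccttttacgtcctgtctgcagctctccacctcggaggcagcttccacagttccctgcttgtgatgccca
Ccn1: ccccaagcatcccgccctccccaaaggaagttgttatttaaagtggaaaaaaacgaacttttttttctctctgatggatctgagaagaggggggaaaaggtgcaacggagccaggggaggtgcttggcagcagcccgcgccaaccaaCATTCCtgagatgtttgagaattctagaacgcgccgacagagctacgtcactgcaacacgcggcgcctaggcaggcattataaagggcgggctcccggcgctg
The word begins 141 bases before the start of Yap1, 136 before that of Wwtr1, 103 before that of Ccn1, and 186 and 164 before that of Ajuba. Tead3 and Amotl2 also hold it, so 5 of the 8 members with a RefSeq entry did, against 14.4% of 27025 genes searched in the same way on both strands. In Tead2, Lats1 and Lats2 these letters are not in the window, and Tead1 and Tead4 were not matched. Of the 8 with an entry, Yap1, Wwtr1 and Amotl2 were lower with the word, Tead3 was higher and Ajuba was not called. Without the word, Lats1 and Lats2 were lower and Tead2 higher. Whether the word bears on these levels was not tested. Among 20 target genes described below, 13 had an entry and 5 of them held the word (Ccn1, Ankrd1, Axl, Crim1 and Ptpn14). Ccn2, a readout as widely used as Ccn1, had no entry and could not be searched. A match is a description of the letters and does not show binding.

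For the comparison of WT31_P5IV with WT31, all 10 genes had enough counts to be tested (at least 10 in every library), and 8 passed an adjusted p of 0.05 in edgeR's quasi-likelihood test. This share has to be read against the whole table, in which 68.5% of 13620 tested genes passed. Of the 10 genes, 6 were lower in WT31_P5IV, against 33.9% of all tested genes, and 2 were higher, against 34.6%. None of the 10 also reached a log2 fold change of 1 in either direction, which 9.10% of all tested genes did. The median log2 fold change was -0.26 over the 10 genes and 0.01 over all tested genes. In 5 of them (Yap1, Wwtr1, Tead1, Lats2 and Amotl2) the CPM of the groups did not overlap, which was so for 54.1% of all tested genes. Without WT31 replicates 2 and 3, 5 of the 10 were lower and 0 higher, while 67.1% of 14009 genes then passed. Of all genes in that fit, 34.2% were lower. The 5 that stayed lower were the 5 whose groups did not overlap.

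**Figure D1:**
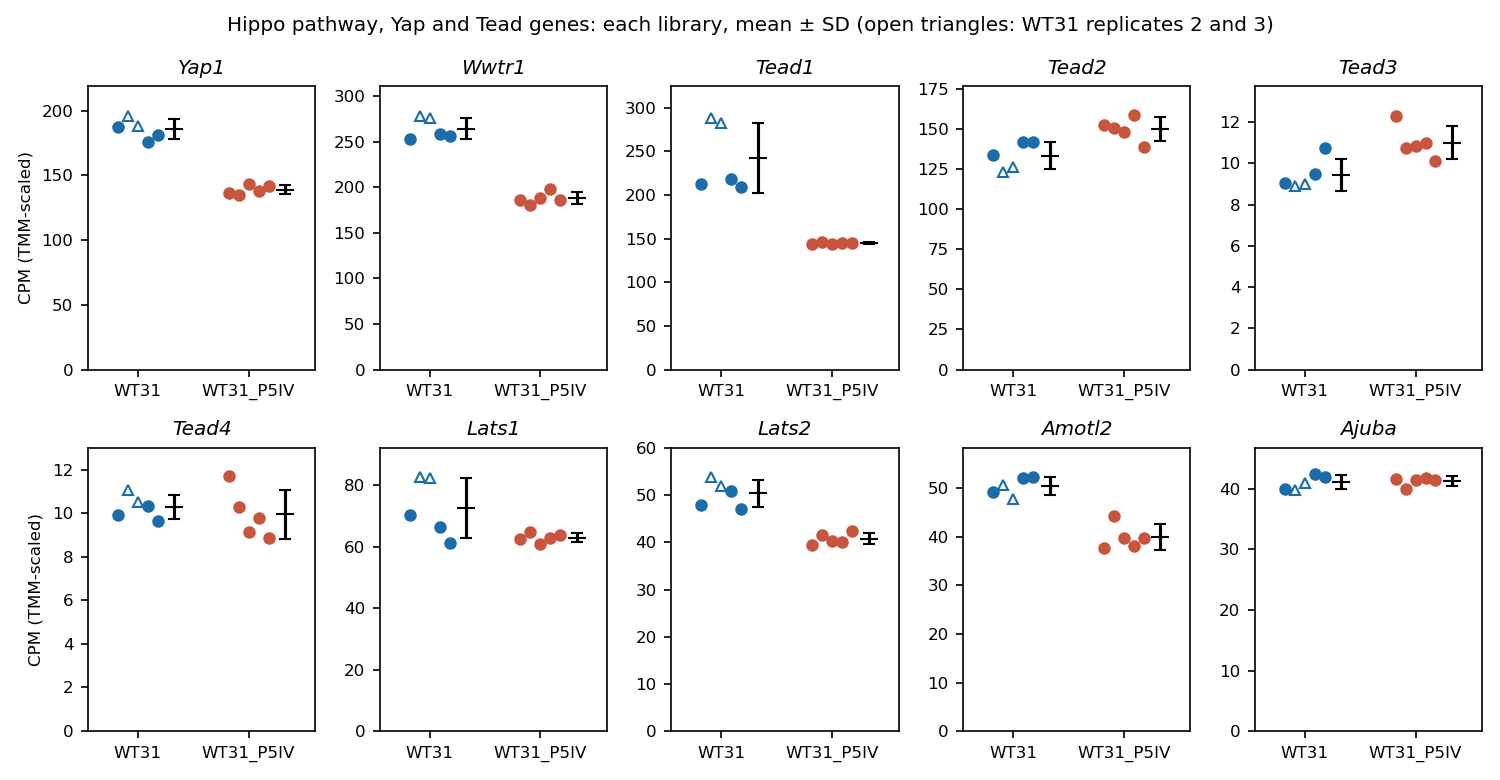
CPM (scaled by the trimmed mean of M-values, linear axes from 0) of each of the 10 genes in the 5 WT31 and 5 WT31_P5IV libraries, with the group mean and SD in black and WT31 replicates 2 and 3 as open triangles. Yap1, Wwtr1, Tead1, Lats2 and Amotl2 show no overlap between groups, and the triangles lie above the other WT31 libraries for Yap1, Wwtr1, Tead1, Tead4, Lats1 and Lats2.

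Positions of the genes are those of GRCm38 in the GENCODE annotation. Yap1 (chr9:7931999-8004596), the coactivator after which this branch of signalling is named, was at 187, 196, 188, 176 and 182 CPM in WT31 replicates 1 to 5 and at 136, 135, 144, 138 and 142 CPM in WT31_P5IV. Every WT31_P5IV library lay below every WT31 library. The means were 186 ± 7.58 CPM (SD, n = 5) in WT31 and 139 ± 3.65 CPM (SD, n = 5) in WT31_P5IV. The difference was a log2 fold change of -0.42 with a standard error (SE) of 0.04, so WT31_P5IV held 74.8% of the WT31 level (edgeR, adjusted p = 1.22e-07).

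Wwtr1 (chr3:57455649-57575910), which encodes the paralogous coactivator Taz, moved in the same direction. Its CPM in WT31 replicates 1 to 5 were 253, 278, 276, 259 and 256, and in WT31_P5IV 186, 181, 189, 198 and 186. Again the groups did not overlap, with a gap between the lowest WT31 and the highest WT31_P5IV library of 252.9 against 198.4 CPM. The log2 fold change was -0.49 (SE 0.04, adjusted p = 4.39e-08 in edgeR), leaving 71.1% of the WT31 level. Leaving out WT31 replicates 2 and 3 changed neither coactivator's call, with log2 fold changes of -0.40 for Yap1 and -0.46 for Wwtr1. Set side by side per transcript length, in TPM, which scales counts to transcript length and library, the summed level of Yap1 and Wwtr1 went from 163 ± 10.8 in WT31 to 106 ± 3.69 in WT31_P5IV (SD, n = 5 each). TPM differences here include a shift of the whole table, since on log2(TPM + 0.1) the median of all tested genes lay at -0.167. Within that sum the share of Wwtr1 was 53.8% in WT31 and 52.4% in WT31_P5IV, and this difference of -1.43 percentage points did not pass an exact two-sided permutation test over libraries (p = 0.0794, adjusted p = 0.119 over 6 shares).

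The 4 Tead genes, which encode the DNA-binding partners of Yap1 and Taz, did not move together. Tead1 (chr7:112679318-112906807) had the largest fold change of the 10 genes. It was at 213, 288, 283, 218 and 210 CPM in WT31 replicates 1 to 5 and at 144, 146, 144, 145 and 145 CPM in WT31_P5IV. All WT31_P5IV libraries were lower than all WT31 libraries, and the WT31 libraries fell into a higher pair (replicates 2 and 3) and a lower trio. The coefficient of variation was thus 16.3% in WT31 and 0.772% in WT31_P5IV. Over all libraries the log2 fold change was -0.74 (SE 0.08, adjusted p = 1.81e-06 in edgeR). Without the higher pair it was -0.58 (SE 0.03, adjusted p = 1.92e-10), so the call held at a smaller size.

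Tead2 (chr7:45215753-45233644), a Tead gene with broad expression in the early embryo, had the highest TPM of the 10 genes in both groups. Its CPM in WT31 replicates 1 to 5 were 134, 123, 127, 142 and 142, and in WT31_P5IV 152, 150, 148, 159 and 139. The groups overlapped through WT31_P5IV replicate 5, and the lowest WT31 values were those of replicates 2 and 3. The log2 fold change was 0.17 (SE 0.05, adjusted p = 0.00666 in edgeR). It was 0.09 (adjusted p = 0.0715) without WT31 replicates 2 and 3, and the call was lost. On the TPM scale the means were 108 ± 2.99 and 108 ± 5.47 (SD, n = 5 each), and relative to the shift of all genes on log2(TPM + 0.1) Tead2 stood at 0.17.

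Tead3 (chr17:28331671-28350817) was among the least abundant members, with 9.05, 8.89, 8.98, 9.47 and 10.8 CPM in WT31 replicates 1 to 5 and 12.3, 10.8, 10.8, 11.0 and 10.1 CPM in WT31_P5IV. Only WT31 replicate 5 reached into the range of the subline. The log2 fold change was 0.22 (SE 0.07, adjusted p = 0.0124 in edgeR) and 0.16 (adjusted p = 0.0965) without WT31 replicates 2 and 3. For Tead2 and Tead3 alike, the call was also lost without scaling of the libraries, when genes with a single count were kept, and on the TPM scale.

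Tead4 (chr6:128224288-128300823) was at 9.92, 11.0, 10.5, 10.3 and 9.62 CPM in WT31 replicates 1 to 5 and at 11.7, 10.3, 9.13, 9.77 and 8.84 CPM in WT31_P5IV. The subline held both the highest and the lowest library. The log2 fold change of -0.05 had a 95% confidence interval of -0.21 to 0.11 and an adjusted p of 0.579 in edgeR. On log2(TPM + 0.1) it was -0.25 (adjusted p = 0.0206), or -0.09 relative to the shift of all genes. Tead4 lies on chromosome 6, where the median log2 fold change of tested genes was 0.28, while on the chromosomes of the other 9 members it lay between -0.05 and 0.08. Whether the level of Tead4 moves with its chromosome was not tested.

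**Figure D2:**
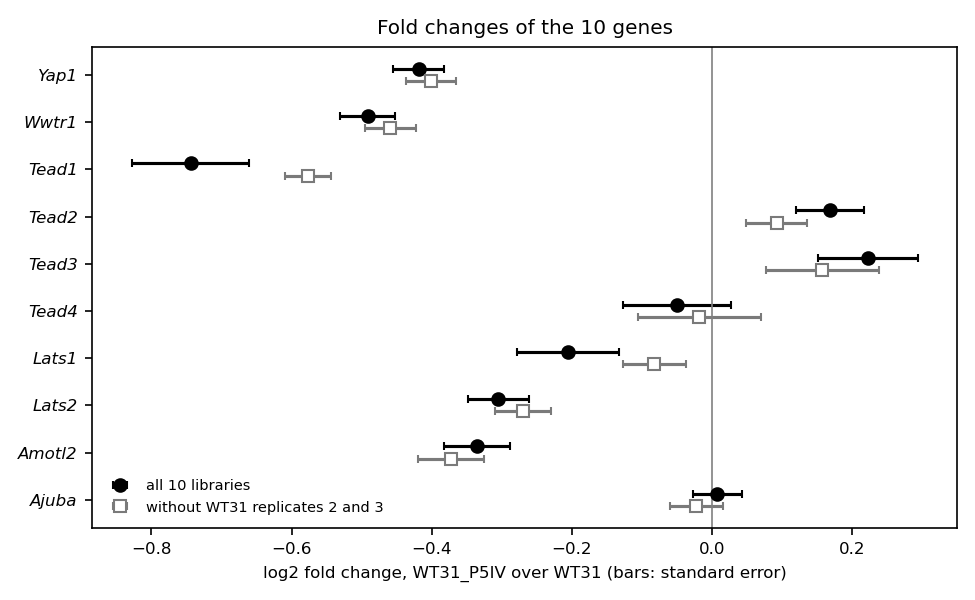
Log2 fold change (WT31_P5IV over WT31, bars are standard errors) of each of the 10 genes with all 10 libraries (filled circles) and without WT31 replicates 2 and 3 (open squares). Tead1 moves from -0.74 to -0.58 and Lats1 from -0.21 to -0.08, while Yap1, Wwtr1, Lats2 and Amotl2 stay between -0.27 and -0.49 in both.

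Because TPM is per length, the Tead genes can be set against each other as shares of their summed level, which was 163 ± 8.41 TPM in WT31 and 143 ± 5.64 TPM in WT31_P5IV (SD, n = 5 each), before any allowance for the shift of all genes on the TPM scale. A scaling that is the same for every gene leaves shares as they are. Tead2 made up 66.6% ± 3.59 of that sum in WT31 and 75.7% ± 0.991 in WT31_P5IV. Tead1 made up 24.8% ± 3.80 in WT31 and 15.3% ± 0.793 in WT31_P5IV. For both, no library of one group overlapped with the other group, and the exact two-sided permutation test gave p = 0.00794, the smallest that 5 against 5 libraries allow (adjusted p = 0.0238 over 6 shares). These shares come from the same sum and largely mirror each other, so they are not separate results. The mean TPM of Tead2 was 108 in both groups, while that of Tead1 went from 40.7 in WT31 to 21.9 in WT31_P5IV. Without WT31 replicates 2 and 3 the share of Tead1 differed by -6.79 percentage points and that of Tead2 by 6.48, and the groups still did not overlap, but with 3 against 5 libraries the smallest exact p is 0.0357 (adjusted p = 0.0714). The share of Tead3 was 3.81% in WT31 and 4.48% in WT31_P5IV and did not pass after adjustment (exact p = 0.0317, adjusted p = 0.0635). The share of Tead4 was 4.74% in WT31 and 4.52% in WT31_P5IV (exact p = 0.397, adjusted p = 0.397).

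**Figure D3:**
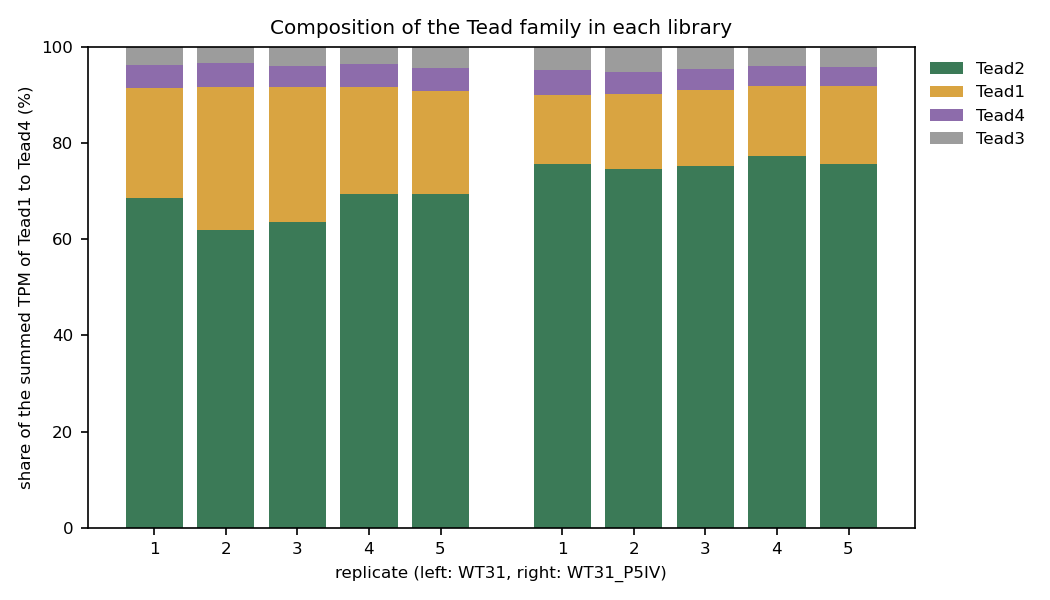
Share of each Tead gene (percent of the summed TPM of Tead1 to Tead4, axis from 0 to 100) in every library, WT31 on the left and WT31_P5IV on the right. Tead2 takes 61.9% to 69.5% in WT31 and 74.5% to 77.2% in WT31_P5IV, and Tead1 is largest in WT31 replicates 2 and 3, at up to 29.8%.

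Lats1 (chr10:7681214-7716460), a kinase that phosphorylates Yap1 and Taz, was at 70.5, 82.8, 82.4, 66.3 and 61.2 CPM in WT31 replicates 1 to 5 and at 62.5, 64.8, 60.9, 62.9 and 64.0 CPM in WT31_P5IV. The groups overlapped through WT31 replicate 5, and replicates 2 and 3 were again the highest. The log2 fold change was -0.21 (SE 0.07, adjusted p = 0.0206 in edgeR). It was -0.08 (SE 0.04, adjusted p = 0.116) without replicates 2 and 3, so the call on Lats1 rested on these libraries.

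Lats2 (chr14:57689662-57758388), its paralogue and itself a transcriptional target of Yap1 and Taz, was at 47.9, 53.9, 52.0, 50.9 and 47.2 CPM in WT31 replicates 1 to 5 and at 39.4, 41.6, 40.4, 40.1 and 42.4 CPM in WT31_P5IV. The groups did not overlap. WT31_P5IV held 80.9% of the WT31 level, a log2 fold change of -0.31 (SE 0.04, adjusted p = 1.93e-05 in edgeR), and -0.27 without WT31 replicates 2 and 3. The counts of Lats2 carry an uncertainty that the other members do not. A neighbouring gene model on the same strand, Gm49361, covers 42.4% of its exon bases and was listed at 0 counts in every library, and 41.8% of the 31-base words of Lats2 transcripts also occur in other genes, against at most 3.07% for the other 9. In TPM, Lats1 and Lats2 summed to 31.7 ± 3.83 in WT31 and 23.7 ± 0.397 in WT31_P5IV (SD, n = 5 each), before any allowance for the shift of all genes. The share of Lats2 in that sum was 51.3% in WT31 and 49.8% in WT31_P5IV, a difference that did not pass the exact permutation test (p = 0.23, adjusted p = 0.276). Without WT31 replicates 2 and 3 that difference was -2.84 percentage points with no overlap between the groups, at the smallest exact p that 3 against 5 libraries allow (0.0357, adjusted p = 0.0714).

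Amotl2 (chr9:102716672-102733418), which tethers Yap1 and is induced by it, was at 49.2, 50.8, 47.9, 52.1 and 52.3 CPM in WT31 replicates 1 to 5 and at 37.8, 44.4, 39.8, 38.2 and 39.8 CPM in WT31_P5IV. The highest library of the subline, replicate 2, stayed below the lowest of WT31. The log2 fold change was -0.34 (SE 0.05, adjusted p = 1.6e-05 in edgeR) and -0.37 without WT31 replicates 2 and 3, which for this gene were not the highest.

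Ajuba (chr14:54567472-54577558) had the smallest difference of the 10 in this fit, although without WT31 replicates 2 and 3 that was Tead4 and on the TPM scale Tead2. It was at 40.0, 39.9, 41.0, 42.5 and 42.0 CPM in WT31 replicates 1 to 5 and at 41.7, 39.9, 41.5, 41.8 and 41.5 CPM in WT31_P5IV. All 5 WT31_P5IV libraries lay within the range of the WT31 libraries. Its log2 fold change was 0.01, with a 95% confidence interval of -0.07 to 0.08 (adjusted p = 0.861 in edgeR). The sign of so small a value depends on the scaling, and on log2(TPM + 0.1) it was -0.20 (adjusted p = 0.00303), or -0.03 relative to the shift of all genes.

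The order of the 10 genes by TPM was nearly the same in both groups. In WT31, Tead2 led with a mean of 108 TPM, followed by Wwtr1 with 87.8, Yap1 with 75.3 and Tead1 with 40.7. Ajuba (21.5) and Amotl2 (20.1) followed and overlapped in their library ranges, as did Lats2 (16.2) and Lats1 (15.5), and Tead4 (7.71) and Tead3 (6.20) came last. In WT31_P5IV the means were 108 TPM for Tead2, 55.3 for Wwtr1 and 50.3 for Yap1, with the last 2 now overlapping, then 21.9 for Tead1, 18.8 for Ajuba and 14.3 for Amotl2. Lats1 (11.9) and Lats2 (11.8) overlapped at this lower level, and so did Tead4 (6.48) and Tead3 (6.41). Neighbours not named here as overlapping were separated in every library.

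Other genes of the pathway were examined in 6 lists, from the kinases upstream to the target genes, with 75 different genes of which 68 could be tested. Over these lists 46 genes were lower in WT31_P5IV, 15 were higher and 7 did not pass, with a median log2 fold change of -0.24 against 0.01 over all tested genes. The lists thus had 67.6% lower and 89.7% called in either direction, against 33.9% and 68.5% of all tested genes. Higher genes made up 34.6% of all tested genes, to be set beside the higher counts of each list. The lists were chosen with earlier results of these data known, so such shares are descriptions. Without WT31 replicates 2 and 3 the list genes numbered 47 lower, 17 higher and 4 not passing. Lower genes were then 69.1% and called genes 94.1%, against 34.2% and 67.1% of 14009 genes. Of those 14009 genes, 4616 were higher.

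All 5 genes of the core kinase cassette, which activates Lats1 and Lats2, were lower in WT31_P5IV, with a median log2 fold change of -0.21 and no overlap between groups, against 33.9% lower and 54.1% without overlap over all tested genes. Stk3, which encodes a Mst kinase, was at 56.2 to 64.5 CPM in WT31 and 38.6 to 43.4 CPM in WT31_P5IV (log2 fold change -0.54, SE 0.05). The paralogous kinase gene Stk4 was lower by a log2 fold change of -0.20. The changes were -0.37 and -0.21 for Mob1b and Mob1a, which encode the cofactors of Lats, and -0.13 for Sav1, the scaffold of the Mst kinases. All 5 calls held without WT31 replicates 2 and 3. About 25.4% of the exon bases of Sav1 overlap Atl1 on the opposite strand, and the strand setting of the counting is not given in the sources used here, although Atl1 had at most 124 counts against at least 2394 for Sav1.

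Of 20 upstream regulators 18 were tested, and 11 were lower, 4 higher (5 with a replicate block, with genes of at least 1 count kept, and without WT31 replicate 2, replicate 3 or both) and 3 not past the threshold, with a median of -0.23. Lower genes made up 61.1% of the list, against 33.9% of all tested genes. When WT31 replicates 2 and 3 were left out, Fat4, which encodes an atypical cadherin, was also higher (log2 fold change 0.48, adjusted p = 0.000164, against 0.25 and 0.0959 with all libraries) and is named after its values were seen. Nf2, which encodes the membrane-linked tumour suppressor merlin, was at 121 to 128 CPM in WT31 and 95.3 to 104 CPM in WT31_P5IV (log2 fold change -0.31). Taok3, encoding a kinase of the Tao family that acts on Mst, was lower by a log2 fold change of -0.62. The higher genes included Map4k1 and Map4k2, encoding kinases that can act on Lats in parallel to Mst. Map4k1 went from 2.43 to 4.00 CPM in WT31 to 7.72 to 9.61 CPM in WT31_P5IV (log2 fold change 1.47, and 0.93 to 1.56 over the alternatives), and Map4k2 had a log2 fold change of 0.69. The gene of the cell polarity scaffold Scrib was higher as well, at 86.8 to 91.5 CPM in WT31 and 155 to 174 CPM in WT31_P5IV (log2 fold change 0.88).

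The STRIPAK complex is a phosphatase assembly that removes activating phosphates from the Mst kinases. All 11 of its listed genes were tested, with 7 lower, 3 higher and 1 not past the threshold, and a median of -0.17. Lower genes made up 63.6%, against 33.9% of all tested genes. Slmap, which links the complex to Mst, was at 188 to 231 CPM in WT31 and 130 to 139 CPM in WT31_P5IV (log2 fold change -0.66). The striatin genes Strn3 and Strn were lower by -0.55 and -0.46. Strip2, a low-abundance striatin interactor, went the other way, from 1.02 to 1.53 CPM in WT31 to 2.19 to 3.37 CPM in WT31_P5IV (log2 fold change 1.20, and 0.37 to 1.30 over the alternatives).

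Among scaffolds and Tead partners, 7 of 9 genes were tested, and 3 were lower, 3 higher and 1 not past the threshold, with a median of 0.12. Lower genes made up 42.9%, and higher genes, equal in number, the same share, against 33.9% and 34.6% of all tested genes. The median was 0.18 and 4 genes were higher without WT31 replicates 2 and 3, the fourth being Amot (log2 fold change 0.27, adjusted p = 0.000794, against 0.12 and 0.249 with all libraries), an angiomotin gene named after its values were seen. Vgll3, which encodes a cofactor that binds Tead in place of Yap1, showed the largest change of this list. It was at 16.9 to 19.7 CPM in WT31 and at 0.421 to 0.883 CPM in WT31_P5IV, a log2 fold change of -4.80 (SE 0.12, adjusted p = 2.61e-13 in edgeR). On 10 to 21 counts per WT31_P5IV library, this value ranged from -4.95 to -2.80 over the alternatives. Vgll4, whose product competes with Yap1 for Tead and represses its targets, was higher, at 49.6 to 53.6 CPM in WT31 and 69.1 to 78.9 CPM in WT31_P5IV (log2 fold change 0.49). Vgll3 lies on chromosome 16, where the median log2 fold change of 415 tested genes was -0.42, and Vgll4 on chromosome 6, as do Tead4, Mob1a, Strip2 and Gadd45a, where it was 0.28. Wtip, a LIM-domain relative of Ajuba, was higher by a log2 fold change of 0.60, and Amotl1, a relative of Amotl2, was lower by -0.40, with its highest values in WT31 replicates 2 and 3 (262 and 260 CPM against 211 to 222).

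Of the 11 genes of retention and degradation, 10 were lower in WT31_P5IV, 0 higher and 1 not past the threshold, with a median of -0.30. Lower genes made up 90.9%, against 33.9% of all tested genes. This list holds adaptor proteins of the Ywha family, which keep phosphorylated Yap1 and Taz in the cytoplasm, and the casein kinase and ubiquitin ligase genes that mark them for degradation. Ywhag was at 250 to 260 CPM in WT31 and 166 to 182 CPM in WT31_P5IV (log2 fold change -0.58). Ywhaz and Ywhaq were lower by -0.46 and -0.36, with 16.5% and 32.3% of their 31-base words shared with other gene models, and Csnk1e by -0.33. In this list, the counts without WT31 replicates 2 and 3 were again 10 lower and 0 higher, against 34.2% lower of all genes in that fit.

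**Figure D4:**
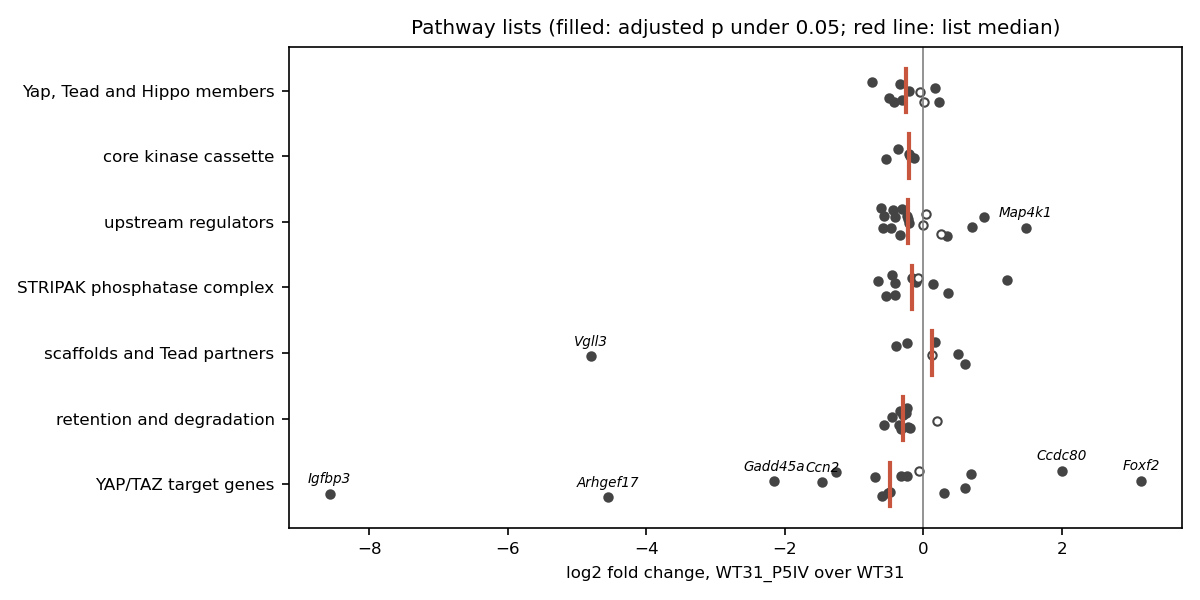
Log2 fold changes (WT31_P5IV over WT31) of every tested gene in the 10 members and the 6 pathway lists, filled where the adjusted p was under 0.05, with the list median in red and the genes farthest from 0 named. The medians lie between -0.49 for the target genes and 0.12 for scaffolds and Tead partners, and the values of the target genes run from -8.57 for Igfbp3 to 3.15 for Foxf2. The values of Arhgef17, Igfbp3, Foxf2 and Vgll3 rest on few counts in one group and depend on the prior count or pseudocount, and over the alternatives Igfbp3 ranged from -8.65 to -5.62 and Foxf2 from 0.72 to 3.45.

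The last list holds target genes that are commonly used to read out Yap1 and Taz activity. Of 20 listed, 17 were tested, and 11 were lower, 5 higher and 1 not past the threshold. Lower genes made up 64.7%, against 33.9% of all tested genes, and the median was -0.49, also with Arhgef17 set at its bound. This list was chosen with earlier results of these data known, and the paper already lists Igfbp3 and Ccn2 as lower. The share is thus a description and not a test. In addition, 5 of the lower and 2 of the higher targets exceeded a log2 fold change of 1, which 9.10% of all tested genes did. With WT31 replicates 2 and 3 left out, 12 were lower (70.6%, against 34.2% of all genes in that fit) and 5 higher. The added gene was Fjx1 (log2 fold change -0.16, adjusted p = 0.0347 in edgeR), named after its values were seen. Ccn1 and Ccn2, which encode secreted matricellular proteins and are the most widely used readouts, were both lower. Ccn1 was at 40.0, 31.9, 29.6, 37.6 and 49.3 CPM in WT31 replicates 1 to 5 and at 19.6 to 25.3 CPM in WT31_P5IV (log2 fold change -0.70, SE 0.12, adjusted p = 8.57e-05 in edgeR). Here WT31 replicates 2 and 3 were the lowest of their group, and the log2 fold change without them was -0.88. Ccn2 was at 20.0 to 24.5 CPM in WT31 and 7.28 to 9.44 CPM in WT31_P5IV, 2.75-fold lower (log2 fold change -1.46, SE 0.07, adjusted p = 2.71e-10). An opposite-strand transcript covers 23.2% of the exon bases of Ccn2 but had at most 9 counts.

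Igfbp3, which encodes an insulin-like growth factor binding protein, went from 77.1 to 85.5 CPM in WT31 to 0.129 to 0.253 CPM in WT31_P5IV, where it rested on 3 to 6 counts per library. Arhgef17 was at 0.832 to 1.33 CPM in WT31 and at no more than 3 counts in any WT31_P5IV library, hence at least 8.73-fold lower against a floor of 3 counts per library. Gadd45a, a growth arrest and stress response gene, was at 63.7 to 70.5 CPM in WT31 and 13.6 to 16.6 CPM in WT31_P5IV, 4.45-fold lower (log2 fold change -2.15), with an opposite-strand transcript of at most 67 counts over 19.1% of its exon bases. Foxf2, encoding a forkhead transcription factor, was higher, at 0.0784 to 0.196 CPM in WT31 and 1.05 to 1.63 CPM in WT31_P5IV, with only 2 to 5 counts per WT31 library. Ankrd1, another common readout, was too low to be tested, with at most 0.151 CPM in WT31 and 0.172 CPM in WT31_P5IV, and a difference was not detectable at this depth.

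**Figure D5:**
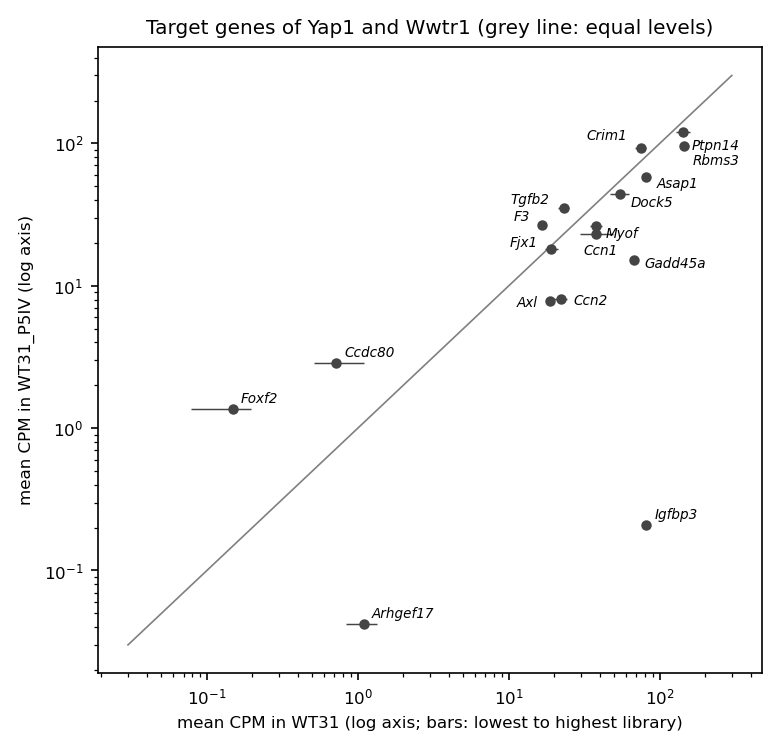
Mean CPM of the 17 tested target genes in WT31 (horizontal) and WT31_P5IV (vertical), both on log axes, with horizontal bars from the lowest to the highest WT31 library and a grey line of equal levels. Igfbp3, Arhgef17, Gadd45a, Ccn2 and Axl lie farthest below the line, and Foxf2 and Ccdc80 farthest above it.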

How the data were processed

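RNA of 5 WT31 and 5 WT31_P5IV libraries had been sequenced by a contract provider, with short reads (the labels name more than one instrument). Per the labels and methods, the authors trimmed reads with Trim Galore (0.6.4) and counted them with kallisto against GRCm38.p6, with the annotation release not given in the sources used here. The authors deposited, for each library, estimated counts per gene and TPM per gene, which is scaled to transcript length and library, with no normalization between libraries stated. Here estimated counts were rounded, scaled by the trimmed mean of M-values and tested in edgeR 4.0.16 (R 4.3.3; filterByExpr, quasi-likelihood test, Benjamini-Hochberg over all tested genes, threshold 0.05). CPM, fold changes and confidence intervals come from this fit. Symbols and gene positions come from GENCODE M21, which matched 55144 of 55385 identifiers after removal of version numbers. Shares among paralogues used TPM and exact permutation tests. The edgeR fit, and the limma voom and DESeq2 fits named below, were tested on simulated counts.

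Named genes were the 10 members, Stk3, Stk4, Sav1, Mob1a, Mob1b, Nf2, Ccn1, Ccn2 and Ankrd1, and in each list the 4 genes with the largest absolute log2 fold change among those that passed without overlap of CPM. The members and lists were chosen with earlier results of these data known. Alternatives were DESeq2 1.42.0, limma 3.58.1 (voom with and without scaling, and log2(TPM + 0.1) or log2(TPM + 1)), upper-quartile scaling, filters of at least 1 count in any library or 10 counts in every library, a replicate block, and each library left out in turn. Leaving out WT31 replicates 2 and 3 together was chosen after seeing the data. A count of 0 to 3 was taken as the floor, and intervals cover the spread of these libraries only.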

Additional observations from a re-analysis of the deposited data

Results flagged for a closer look

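Within each group of 5 libraries, the highest and the lowest value were set against the rest by Dixon's ratio of gap to range (critical value 0.71), in 76 groups of named genes, and 2 groups exceeded it. Chance alone flags about 1 in 20 groups. Ajuba in WT31_P5IV replicate 2 was at 39.93 CPM, below the other WT31_P5IV libraries at 41.5 to 41.82 CPM. Sav1 in WT31_P5IV replicate 4 was at 105.8 CPM, above the others at 102.2 to 103 CPM. Leaving out either library left the call on its gene as it was.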

How the results depend on the processing

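Yap1, Wwtr1, Tead1, Lats2 and Amotl2 stayed lower with an adjusted p under 0.05 in all 20 alternatives, and Lats1 in 19. Their log2 fold changes ranged from -0.58 to -0.39 for Yap1, from -0.66 to -0.46 for Wwtr1 and from -0.87 to -0.58 for Tead1. Tead2 and Tead3 each passed in 15 of 20. The number of members higher in WT31_P5IV was 0 with genes of at least 1 count kept, on log2(TPM + 0.1), on log2(TPM + 1), with voom without scaling and without WT31 replicates 2 and 3. With TPM, 2915 of 8861 calls were higher, and without scaling 4009 of 9416, against 4709 of 9327. The genes past a log2 fold change of 1 numbered 1240, or 2319 with genes of at least 1 count kept, 698 with at least 10 counts in every library and 465 on log2(TPM + 1). The list of retention and degradation had 0 to 1 higher genes when single libraries were left out. The Ajuba log2 fold change turned negative with genes of at least 1 count kept (-0.0478), on log2(TPM + 0.1) (-0.20) and log2(TPM + 1) (-0.19), in voom without scaling (-0.0621) and without WT31 replicates 2 and 3 (-0.0227), and ranged from -0.015 to 0.0149 with single libraries left out. The share differences in CPM, not per length, were 1.08 percentage points for Tead3 and 0.543 for Tead4, the latter reversed, and -15.1 for Tead1 and 13.4 for Tead2. All 4 then had the smallest exact p that 5 against 5 libraries allow (0.00794) and passed after adjustment over the 6 shares. In TPM, the share differences without WT31 replicates 2 and 3 were -6.79 for Tead1 and 6.48 for Tead2 and did not pass. With single libraries left out, the TPM share differences ranged from 0.52 to 0.808 for Tead3 and from -1.9 to -1.13 for Wwtr1. The causes were not tested.

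The replicate numbers in the titles are shared by both groups. No pairing was seen, as deviations of libraries with the same number correlated at -0.096 to 0.178. Not every library correlated best with its own number. Such correlations cannot show how the cultures and libraries were arranged. A replicate block gave 9380 calls against 9327 and changed no call on a member. It raised the higher upstream regulators from 4 to 5 and changed no other count of a list.

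Ankrd1, at 0 to 4 counts per library, was too shallow to compare at this depth.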
